A study of Homo sapiens with 9 samples.

Results

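The 10 genes described here are snoRNA host genes, whose introns carry small nucleolar RNAs and whose spliced exons form a polyadenylated RNA with little or no coding role. They are GAS5, SNHG1, SNHG5, SNHG6, SNHG8, SNHG12, SNHG15, SNHG16, ZFAS1 and EPB41L4A-AS1, chosen by name from the 37118 genes of the deposited table, and each name matched 1 row. The study gave metformin, a biguanide used against diabetes, to A375, an established human melanoma cell line, and the labels put its question as the mechanism by which the drug acts on these cells. RNA was sequenced from 3 libraries given 0 mM metformin, 3 given 20 mM and 3 given 40 mM, all labelled with the genotype WT. All groups are this 1 line, the labels give no duration of treatment, and nothing states that the 3 libraries of a dose came from separate cultures. The p-values below therefore set the difference between doses against the spread among libraries of a dose, and that spread may be technical.

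Small nucleolar RNAs guide the chemical modification of ribosomal RNA, box C/D RNAs directing methylation of the ribose and box H/ACA RNAs directing pseudouridylation. Many host genes start with a 5′ terminal oligopyrimidine (TOP) tract, the C followed by pyrimidines that ribosomal protein mRNAs also carry and through which mTORC1 signalling acts on translation. The spliced host RNAs hold short open reading frames with early stop codons, are engaged by ribosomes, and are in several cases removed by nonsense-mediated decay, a pathway that needs translation, so that such RNAs are known to accumulate when translation or decay is blocked.

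By a table of hosted RNAs written from general knowledge, the 10 genes hold 34 small nucleolar RNAs, of which 28 are box C/D and 6 box H/ACA. GAS5 hosts 10 of them, SNHG1 8, SNHG16 and ZFAS1 3 each, SNHG5 2 and SNHG6 1, all box C/D. SNHG12 hosts 1 box C/D and 3 box H/ACA RNAs. SNHG8, SNHG15 and EPB41L4A-AS1 host 1 box H/ACA RNA each and no box C/D RNA, so a description of the whole group as SNORD hosts does not hold for these 3.

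The first 30 bases of 1 annotated transcript are shown for 9 of the 10 genes, because the TOP tract is the feature the genes were grouped on. Transcripts are from GENCODE release 29 (GRCh38), written 5′ to 3′ on the gene's strand, and capitals mark a C at the first base with the run of C or T that follows it, where that run is 4 bases or longer. Where a gene has such transcripts, the 1 shown was taken from among them, at their most common start. It need not be the gene's usual start. No sequence of SNHG6 is printed.
GAS5: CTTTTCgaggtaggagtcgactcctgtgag
SNHG16: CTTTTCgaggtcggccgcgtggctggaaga
SNHG5: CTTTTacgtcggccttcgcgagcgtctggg
ZFAS1: CTTTCgcgtctgcggtgcccggagtgtggt
SNHG8: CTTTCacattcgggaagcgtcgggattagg
SNHG12: CCTTTCTCCCCgccgcattcccggtgtcga
SNHG1: CTCCTgtctgcaggatttacgcgcacgttg
SNHG15: cattaggggctcagcgcgtccctccaggcc
EPB41L4A-AS1: tgtcgggtcccaaaatacgtggtctaaagt
These starts lie at chr1:173867960-173867989 (minus strand) for GAS5, chr17:76557769-76557798 (plus) for SNHG16, chr6:85678704-85678733 (minus) for SNHG5, chr20:49278642-49278671 (plus) for ZFAS1 and chr4:118278758-118278787 (plus) for SNHG8. Those of SNHG12, SNHG1, SNHG15 and EPB41L4A-AS1 lie at chr1:28581844-28581873 (minus), chr11:62855450-62855479 (minus), chr7:44986932-44986961 (minus) and chr5:112160526-112160555 (plus). Each is the beginning of a first exon. GAS5 and SNHG16 share their first 11 bases, and SNHG12 has the longest pyrimidine run shown, 10 bases after the first C.

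A start of this kind was annotated for at least 1 transcript of 8 of the 10 genes, and for none of the transcripts of SNHG15 and EPB41L4A-AS1. In SNHG1 it was 1 of 25 transcripts, starting at 62855479, inside a gene whose annotated 5′ end is at 62855914 (minus strand). Over the 136 annotated transcripts of the 10 genes, 16.9% began this way, against 2.41% of the 206694 transcripts of the whole annotation. By gene, 19.1% of the 15019 genes with 4 or more transcripts had at least 1 such start, as did 66 of the 79 cytosolic ribosomal protein genes. Since the genes were grouped on this tract, these shares describe the choice of genes and test nothing. Transcripts of the same gene are also not independent, and GAS5 alone has 29 of them. Annotated starts can be off by several bases, so a transcript without the tract here may have it in the cell.

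RefSeq promoter windows (GRCh38.p14) were at hand for 8 of the 10 genes. A TATAA box lying between 45 and 16 bases before the start, read on the gene's strand, was found in 4 of these windows (SNHG5, SNHG8, SNHG12 and ZFAS1), and in 4.09% of all 35116 windows searched at the same place. Those of 2 of them are shown from 40 bases before the start to 30 after it, with TATAA in capitals, because both elements can be seen in 1 stretch.
SNHG5: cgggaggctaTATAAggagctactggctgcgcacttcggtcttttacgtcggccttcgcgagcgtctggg
ZFAS1: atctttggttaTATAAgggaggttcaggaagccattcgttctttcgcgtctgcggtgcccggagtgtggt
The SNHG5 stretch lies at chr6:85678704-85678773 (minus strand) and the ZFAS1 stretch at chr20:49278602-49278671 (plus strand). A pyrimidine start of the kind described above lay at the RefSeq start in 3 of the 8 windows, those of SNHG5, SNHG12 and ZFAS1. Over all windows the share was 4.07%. The windows of GAS5, SNHG1, SNHG8, SNHG16 and EPB41L4A-AS1 did not have it there. A match is a description of these letters and not a mapped binding site.

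Library totals ran from 65738242 counts in replicate 3 at 40 mM to 75629413, and the 10 genes together held between 0.0821% and 0.113% of a library. Of 8 melanoma markers, SOX10, AXL, S100B and MITF were at 1 FPKM or more at 0 mM (104, 32.6, 10.2 and 3.06 FPKM), while the pigment genes PMEL, MLANA and DCT were below 1 FPKM and TYR was listed at 0 in all 0 mM libraries. Of 8 markers of keratinocytes, fibroblasts, leukocytes and endothelium, 7 stayed below 1 FPKM in every library, and KRT14, a keratin, lay between 6.02 and 8.98 FPKM. Replicate 3 at 40 mM stood apart in several measures. It had the smallest total, the highest mitochondrial share (4.36% of counts, against 3.01% and 3.27% in the other 40 mM libraries) and the lowest share of ribosomal protein genes (5.07%, against 5.53% and 5.80%). For several results at 40 mM the value without it is given as well.

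Per length, SNHG1, SNHG6 and GAS5 were the most abundant of the 10 genes in cells given 0 mM, at 49.1 ± 1.35, 46.5 ± 0.513 and 46.3 ± 1.40 FPKM (mean ± SD, n = 3 libraries). The libraries of SNHG6 and GAS5 overlapped, so these neighbours could not be ordered, whereas the libraries of every other pair of neighbours were separate. GAS5 stood 3.88 times above the next gene, SNHG12 (11.9 ± 0.169 FPKM). SNHG16 followed at 11.5 ± 0.149 FPKM, ZFAS1 at 8.85 ± 0.223 FPKM and EPB41L4A-AS1 at 7.43 ± 0.319 FPKM. The lowest levels were those of SNHG15 (6.88 ± 0.108 FPKM), SNHG5 (5.53 ± 0.330 FPKM) and SNHG8 (3.82 ± 0.292 FPKM). This order depends on the lengths behind the FPKM. The length implied by counts and FPKM was 3975 bases for SNHG1, 100% of its genomic span, and 12652 bases for SNHG5, but 1247 bases for SNHG6. A length near the full span takes in introns, so the level of spliced RNA is understated to unequal degrees. For SNHG12 the implied length was 4274 bases, 128% of its span, and for SNHG15 104%. These lengths therefore do not all follow from the positions of the rows. The comparisons between doses below are within a gene and do not use the length.

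Levels per library are given next as CPM, the usual depth-normalised count, scaled by TMM (a factor that corrects library composition), in the order replicate 1, 2 and 3. Among hosts of box C/D RNAs alone, GAS5, a regulator of growth arrest studied also as a decoy for the glucocorticoid receptor, had 249.6, 260.3 and 257 CPM at 0 mM, 321, 365 and 395 CPM at 20 mM, and 320.4, 330.4 and 285 CPM at 40 mM. All 6 treated libraries lay above all 3 untreated ones. ZFAS1, which overlaps the start of ZNFX1 on the other strand and hosts the SNORD12 family, had 87.3, 82.0 and 82.8 CPM at 0 mM, 101, 103 and 108 CPM at 20 mM, and 91.2, 97.5 and 90.6 CPM at 40 mM. Its 3 dose groups did not overlap, with 20 mM highest and 0 mM lowest. SNHG16, host of the SNORD1 family, had 71.2, 70.6 and 69.0 CPM at 0 mM, 79.3, 78.0 and 84.1 CPM at 20 mM, and 73.7, 72.1 and 67.2 CPM at 40 mM. Its 20 mM libraries stood above the rest, and its 40 mM and 0 mM libraries overlapped.

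SNHG1, the host of SNORD22 and SNORD25 to SNORD31, had 221, 228 and 219 CPM at 0 mM, 199.97, 208 and 238 CPM at 20 mM, and 168, 172 and 156 CPM at 40 mM. Its 40 mM libraries were below all others. SNHG5, host of the SNORD50 pair, had 83.4, 81.8 and 74.0 CPM at 0 mM, 80.4, 89.7 and 93.6 CPM at 20 mM, and 75.2, 79.9 and 54.9 CPM at 40 mM. Replicate 3 at 40 mM was far below its group there, and the 40 mM and 0 mM libraries overlapped. SNHG6, host of SNORD87, had 66.1, 65.8 and 66.6 CPM at 0 mM, 64.4, 67.5 and 75.8 CPM at 20 mM, and 64.5, 66.9 and 57.0 CPM at 40 mM. The 3 doses overlapped in this gene.

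Of the hosts with box H/ACA RNAs, SNHG12 had 58.4, 58.7 and 57.3 CPM at 0 mM, 50.6, 52.7 and 57.7 CPM at 20 mM, and 45.0, 43.6 and 36.7 CPM at 40 mM. SNHG15, host of SNORA9, had 31.8, 30.4 and 30.8 CPM at 0 mM, 25.0, 29.2 and 28.3 CPM at 20 mM, and 23.5, 26.2 and 20.4 CPM at 40 mM. In both genes every 40 mM library lay below every 0 mM library. SNHG8, host of SNORA24, had 31.2, 28.9 and 26.4 CPM at 0 mM, 25.3, 27.3 and 29.3 CPM at 20 mM, and 22.4, 23.6 and 14.4 CPM at 40 mM. Its 40 mM libraries were below the others, with replicate 3 lowest by a wide margin. EPB41L4A-AS1, host of SNORA13, had 32.3, 32.4 and 34.6 CPM at 0 mM, 33.7, 37.6 and 40.8 CPM at 20 mM, and 33.7, 36.4 and 32.8 CPM at 40 mM, with overlap between all doses.

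**Figure D1:**
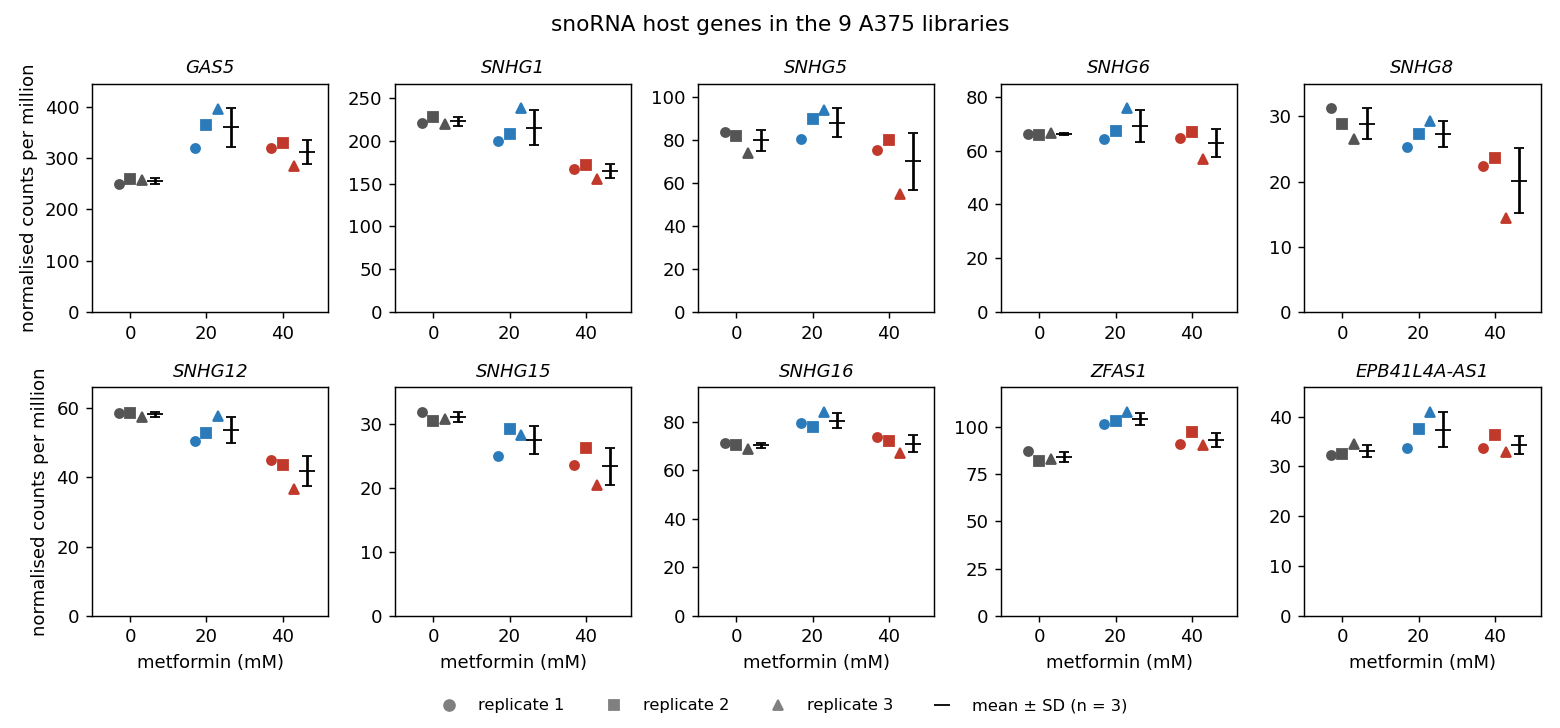
TMM-scaled CPM (vertical axes, each starting at 0) of the 10 host genes at 0, 20 and 40 mM metformin (horizontal axis). Each marker is 1 of 9 libraries, its shape the replicate number, and the black bars are mean ± SD over 3 libraries. GAS5 and ZFAS1 lie higher in all treated libraries than at 0 mM. SNHG1, SNHG5, SNHG6, SNHG8, SNHG12 and SNHG15 average lowest at 40 mM, though in SNHG5 and SNHG6 the 40 mM and 0 mM libraries overlap.

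At 20 mM, 3 of the 10 host RNAs rose relative to 0 mM and none fell. GAS5 rose most, averaging 360.2 ± 37.5 CPM at 20 mM and 256 ± 5.499 CPM at 0 mM (SD, n = 3 each), a log2 fold change of 0.49 ± 0.07 (SE, adjusted p = 0.00071, edgeR's quasi-likelihood test with Benjamini-Hochberg adjustment over 12394 genes). ZFAS1 averaged 104 ± 3.35 CPM at 20 mM and 84.0 ± 2.85 CPM at 0 mM, a log2 fold change of 0.31 ± 0.05 (edgeR adjusted p = 0.00070). SNHG16 rose by 14.6%, with a log2 fold change of 0.20 ± 0.05 (edgeR adjusted p = 0.010). Over all genes tested 31.6% were called in this comparison and 16.3% were called higher, so 3 of 10 is near the background and the count does not set the host genes apart. The median log2 fold change was 0.10 over the 10 genes (0.16 without replicate 1 and 0.05 without replicate 3 at 20 mM) and 0.00 over all genes tested.

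The other 7 genes did not pass at 20 mM. EPB41L4A-AS1 came closest, at a log2 fold change of 0.18 ± 0.07 (edgeR adjusted p = 0.091), and it passed without replicate 1 at 20 mM (0.24, edgeR adjusted p = 0.029). SNHG15 was at −0.17 ± 0.09 (edgeR adjusted p = 0.17) although its 20 mM libraries all lay below its 0 mM libraries. SNHG12, SNHG8 and SNHG1 had log2 fold changes of −0.12, −0.08 and −0.05, and SNHG5 and SNHG6 of 0.14 and 0.07. The groups did not overlap in 3 genes that were higher and 1 that was lower at 20 mM, that is in 4 of 10, against 50.6% of all genes tested (25.3% in each direction).

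At 40 mM, 2 host RNAs rose and 4 fell relative to 0 mM. The 4 that fell were SNHG12, SNHG1, SNHG15 and SNHG8. SNHG12 averaged 41.8 ± 4.42 CPM at 40 mM and 58.1 ± 0.708 CPM at 0 mM, a log2 fold change of −0.48 ± 0.07 (edgeR adjusted p = 0.00028). SNHG1 averaged 165 ± 8.41 CPM at 40 mM and 223 ± 4.801 CPM at 0 mM, a log2 fold change of −0.43 ± 0.06 (edgeR adjusted p = 0.00018). SNHG15 fell by 24.7%, a log2 fold change of −0.41 ± 0.09 (edgeR adjusted p = 0.0027). SNHG8 had the lowest value, −0.52 ± 0.15 (edgeR adjusted p = 0.013). Its size leaned on replicate 3 at 40 mM, without which it was −0.33 (edgeR adjusted p = 0.0068).

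GAS5 and ZFAS1 were again the genes that rose. GAS5 averaged 312 ± 23.7 CPM at 40 mM and 256 ± 5.499 CPM at 0 mM, a log2 fold change of 0.29 ± 0.07 (edgeR adjusted p = 0.0068). ZFAS1 was at 0.15 ± 0.05 (edgeR adjusted p = 0.018), a rise of 10.8%, and it did not pass without replicate 2 or 3 at 0 mM or replicate 2 at 40 mM (edgeR adjusted p = 0.070, 0.057 and 0.075). Over all genes tested 56.2% were called at this dose, 28.8% higher and 27.4% lower, so 6 of 10 is again near the background. The median log2 fold change of the 10 genes was −0.13 (−0.03 without replicate 3 and −0.21 without replicate 2 at 40 mM), against 0.00 over all genes tested. In the same 6 genes the 40 mM and 0 mM libraries did not overlap, against 61.2% of all genes tested (31.2% higher and 30.1% lower).

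The 4 genes that did not pass at 40 mM against 0 mM were SNHG5 (−0.19 ± 0.12, edgeR adjusted p = 0.20), SNHG6 (−0.07 ± 0.07), EPB41L4A-AS1 (0.05 ± 0.07) and SNHG16 (0.02 ± 0.05). SNHG5 moved to −0.04 without replicate 3 at 40 mM. The comparisons of 20 and 40 mM with 0 mM share the 0 mM libraries, so their values are not independent of each other.

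**Figure D2:**
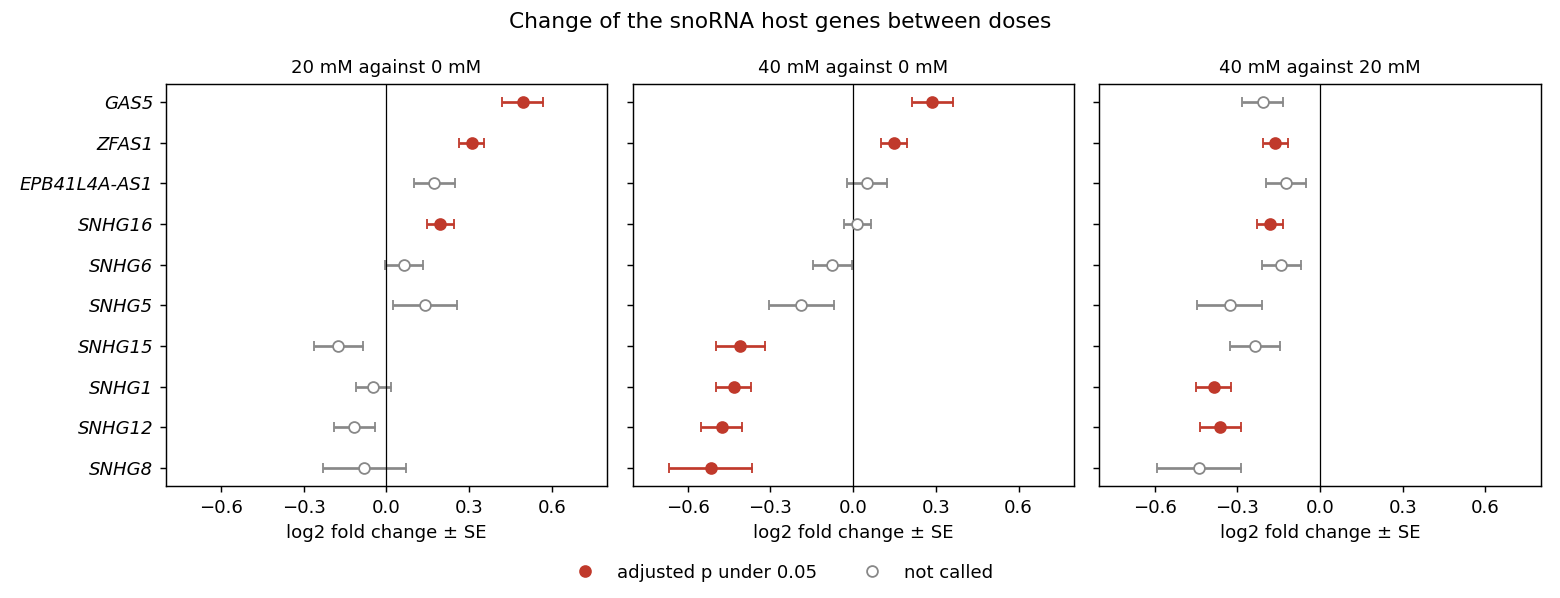
Log2 fold change ± SE (horizontal axes) of the 10 host genes (vertical axis) in the 3 comparisons between doses. Filled red markers passed edgeR's test at an adjusted p under 0.05 and open grey markers did not. GAS5, at the top, is at 0.49 and 0.29 against 0 mM, SNHG8, at the bottom, is at −0.08 and −0.52, and all 10 genes lie left of 0 between 40 and 20 mM.

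Between 40 and 20 mM all 10 host genes had a log2 fold change below 0, and 4 of them fell. SNHG1 was at −0.39 ± 0.06 (edgeR adjusted p = 0.0016) and SNHG12 at −0.36 ± 0.07 (edgeR adjusted p = 0.0052). SNHG16 and ZFAS1, which rose at 20 mM against 0 mM, fell by 11.8% and 10.6% at 40 mM against 20 mM (edgeR adjusted p = 0.016 and 0.024). In all genes tested 29.3% were called and 15.1% were called lower, and the median was 0.00, against −0.22 over the host genes (−0.15 without replicate 3 at 40 mM). A direction below 0 throughout was shared by related genes described further on. All 79 cytosolic ribosomal protein genes were below 0 between 40 and 20 mM (highest −0.015), as were all 17 other genes with TOP starts (highest −0.018). This comparison uses the same treated libraries as those against 0 mM.

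Several host genes lay near the threshold between 40 and 20 mM, and the count of those that fell was not stable. SNHG8 was at −0.44 ± 0.15 (edgeR adjusted p = 0.051), SNHG5 at −0.33 ± 0.12 (edgeR adjusted p = 0.057), GAS5 at −0.21 ± 0.07 (edgeR adjusted p = 0.058) and SNHG15 at −0.24 ± 0.09 (edgeR adjusted p = 0.074). SNHG6 and EPB41L4A-AS1 were at −0.14 and −0.12 (edgeR adjusted p = 0.16 and 0.23). Without replicate 3 at 20 mM 2 genes fell, SNHG1 and SNHG12, and without replicate 2 at 40 mM 7 fell. Leaving out replicate 1 at 20 mM gave 6, and leaving out replicate 3 at 40 mM gave 5. The 40 and 20 mM libraries did not overlap in 6 genes, all lower at 40 mM, against 43.7% of all genes tested in either direction and 22% lower.

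**Figure D3:**
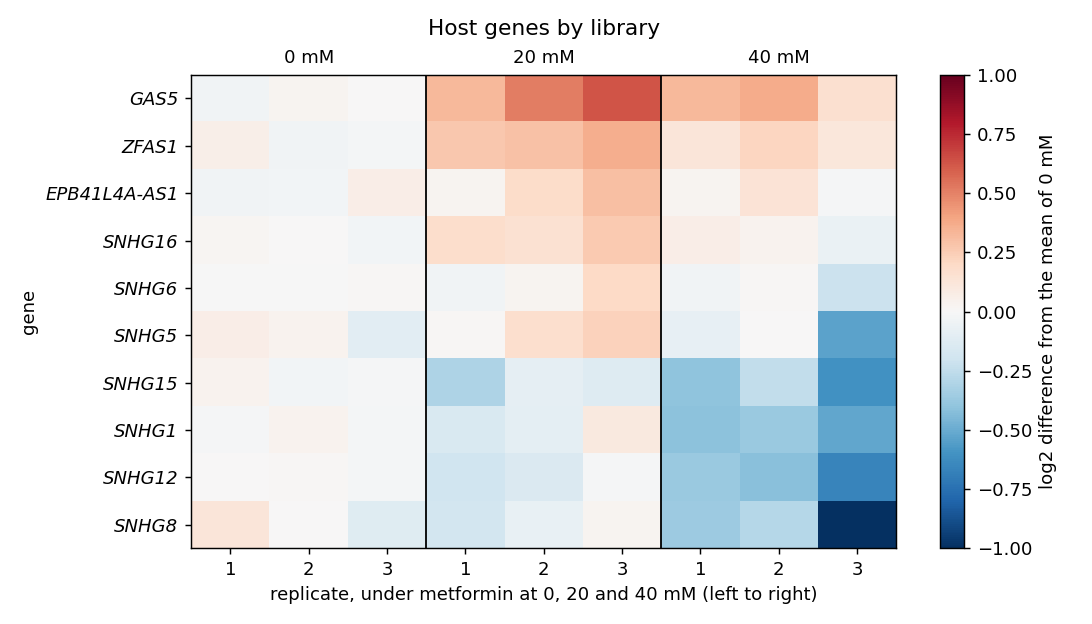
Log2 difference of each library from the mean of the 0 mM libraries (colour, red above and blue below 0), with the 10 host genes in rows and the 9 libraries in columns by dose and replicate. GAS5 and ZFAS1 are red in all 6 treated columns, SNHG15 is blue in all 6, and the last column, replicate 3 at 40 mM, is the lowest of its dose in every row.

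Within a dose, the same library was often the extreme one across the host genes. Replicate 3 at 40 mM was the lowest library of its dose in 10 of 10 genes, whereas 40.6% of all genes tested were lowest there. Its log2 difference from the mean of replicates 1 and 2 ran from −0.06 in ZFAS1 to −0.67 in SNHG8, and was −0.50 in SNHG5. At 20 mM, replicate 3 was highest in 9 of the 10 genes and replicate 1 lowest in 9, against 34.7% and 35.9% of all genes tested. The 20 mM libraries had mitochondrial shares between 3.63% and 3.77% and ribosomal protein shares between 5.95% and 6.28%. What part depth, the mitochondrial share or the culture had in this common shift was not tested.

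Because a shift of equal size in 2 genes cancels in their ratio within a library, the balance of the 2 hosts with the most counts is given as well. This ratio was chosen after the values were seen and has no test. GAS5 over SNHG1 was 1.13, 1.14 and 1.17 in the libraries given 0 mM, 1.60, 1.75 and 1.66 in those given 20 mM, and 1.91, 1.92 and 1.83 in those given 40 mM. The 3 doses did not overlap, and replicate 3 at 40 mM was close to its group. That library's log2 difference from the mean of replicates 1 and 2 was −0.19 in GAS5 and −0.13 in SNHG1. In SNHG8 it was −0.67, so a ratio with other hosts need not cancel it. Summed over the 10 genes, levels were 932, 939 and 918 CPM at 0 mM, 981, 1058 and 1151 CPM at 20 mM, and 917, 948 and 815 CPM at 40 mM. GAS5 made up 26.8 to 28.0% of that sum at 0 mM, 32.7 to 34.5% at 20 mM and 34.8 to 35.0% at 40 mM, while SNHG1 made up 23.7 to 24.3% at 0 mM, 19.7 to 20.7% at 20 mM and 18.1 to 19.1% at 40 mM.

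Some of these rows overlap genes on the other strand. The libraries were made strand-specific with dUTP, per the labels' protocols, but the sources used here do not say whether counting used the strand, so reads from both strands may not have been kept apart. The row of SNHG8 (chr4:118278709-118285316) is overlapped over 79.9% of its span by PRSS12, a secreted protease, whose mean level was 2.003 FPKM. In GENCODE 29 SNHG8 ends at 118279823, so most of this row lies past the annotated gene. The rows of GAS5 and SNHG5 likewise run past their annotated 3′ ends, at 173863900 and 85660950 (minus strand), down to 173858559 and 85650491. PRSS12 did not pass at 40 against 0 mM (log2 fold change −0.08 ± 0.11, edgeR adjusted p = 0.57), where SNHG8 fell. EPB41L4A-AS1 (chr5:112160526-112164818) lies wholly inside EPB41L4A, which averaged 0.261 FPKM. GAS5 (chr1:173858559-173868882) shares 7.76% of its span with ZBTB37, which fell at 40 against 0 mM (log2 fold change −0.32 ± 0.06, edgeR adjusted p = 0.0014), and 14.2% with GAS5-AS1, at 0.845 FPKM. ZFAS1 (chr20:49278178-49295738) shares 1.42% of its span with ZNFX1, an RNA helicase, which did not pass at either dose against 0 mM (0.07 and 0.06, edgeR adjusted p = 0.25 and 0.32).

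The small nucleolar RNAs themselves were mostly not measured, since oligo(dT) capture selects polyadenylated RNA and mature small nucleolar RNAs have no poly(A) tail. Of the 34 hosted RNAs, 21 had a row in the table and 13, among them all 10 of GAS5, had none. In 15 of the 21 no library exceeded 2 counts, and 5 exceeded 10 counts in some library. The counts of those rows are reads that fall in an intron of the host and can come from unspliced host RNA. SNORD12C, in ZFAS1, had 22, 27 and 33 counts at 40 mM, against 44, 47 and 62 counts at 0 mM. SNORD12B, in the same host, had 6, 12 and 13 counts at 40 mM, against 21, 18 and 30 counts at 0 mM.

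These SNORD12C and SNORD12B rows were thus lower in every 40 mM library than in any 0 mM library, and both fell while their host ZFAS1 rose. Their log2 fold changes were −0.88 ± 0.28 and −1.13 ± 0.41 (edgeR adjusted p = 0.019 and 0.036). They were singled out after their values were seen, and the difference between intron row and host was not tested. SNORD12C passed under 14 of 18 alternative settings and SNORD12B under 11 of 17, with a value below 0 under each. Without replicate 3 at 0 mM or replicate 1 or 2 at 40 mM neither row passed, and SNORD12B did not pass without replicate 1 at 0 mM. With all 9 libraries but no expression filter neither passed (edgeR adjusted p = 0.084 for SNORD12C and 0.17 for SNORD12B). SNORD12B also did not pass by DESeq2 (DESeq2 adjusted p = 0.11). SNORA13, in EPB41L4A-AS1, had 20, 30 and 29 counts at 0 mM, 44, 40 and 45 counts at 20 mM and 14, 28 and 20 counts at 40 mM. It fell at 40 against 20 mM (log2 fold change −1.06 ± 0.29, edgeR adjusted p = 0.019), where its host did not pass, and like the SNORD12 rows it was singled out after its values were seen. SNORD99, in SNHG12, had the highest mean count of the hosted rows. It did not pass at 40 against 0 mM (log2 fold change −0.60 ± 0.26, edgeR adjusted p = 0.074), and its direction was that of its host.

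Other host genes of mostly noncoding RNAs were compared in the same way. Of 16 such hosts tested, from 18 listed, 0 rose and 6 fell at 40 against 0 mM, with a median log2 fold change of −0.20. Without replicate 3 at 40 mM, 2 rose and 5 fell and the median was −0.06. DANCR, SNHG14 and SNHG4 had the smallest p, at −0.40 ± 0.04, −0.36 ± 0.06 and −0.38 ± 0.09 (edgeR adjusted p = 2.3e-05, 0.00025 and 0.0035). Only DANCR fell at 20 against 0 mM (−0.24 ± 0.04, edgeR adjusted p = 0.0021), and none rose, while without replicate 3 at 40 mM, which lends its spread to the fit, 3 rose. DESeq2 and a filter of 5 FPKM, which left 9 of these hosts, each gave 2 that rose. Between 40 and 20 mM 5 of them fell with a median of −0.23, and 2 or 3 fell without replicate 2 or 3 at 20 mM or replicate 1 or 2 at 40 mM. Beside these counts and those of the lists below, 28.8% of all genes tested were called higher and 27.4% lower at 40 against 0 mM. The shares were 16.3% and 15.2% at 20 against 0 mM, and 14.3% and 15.1% at 40 against 20 mM.

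Among protein-coding hosts outside the ribosomal proteins most of those called were lower. Of 22, 14 fell and 2 rose at 40 against 0 mM, with a median of −0.23, and 10 fell and 1 rose at 20 against 0 mM, with a median of −0.14 (2 rose there without replicate 3 at 40 mM). NOP56, a core protein of box C/D particles, was at −0.95 ± 0.05 at 40 mM and NCL, the nucleolar protein nucleolin, at −0.61 ± 0.04 (edgeR adjusted p = 1.4e-07 and 8.0e-07). HSPA8, the constitutive HSC70 chaperone, was at −0.75 ± 0.07 (edgeR adjusted p = 8.8e-06). At 20 mM HSPA9, the mitochondrial chaperone mortalin, was the 1 host that rose (0.36 ± 0.04, edgeR adjusted p = 4.8e-05).

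The proteins that pack hosted RNAs into particles were in part lower. Of 17 proteins of box C/D and box H/ACA particles and their assembly factors, 8 fell and 1 rose at 40 against 0 mM, with a median of −0.12 (2 rose without replicate 3 at 40 mM). NOP56, already named as a host, led them, and the assembly factors RUVBL1 (−0.51 ± 0.05) and PIH1D1 (−0.54 ± 0.07) followed (edgeR adjusted p = 6.2e-06 and 5.4e-05). At 20 against 0 mM 8 fell and 1 rose, with the smallest p in NOP56 (−0.52 ± 0.05), RPAP3 (−0.25 ± 0.04) and the pseudouridine synthase DKC1 (−0.28 ± 0.06). That count was 3 or 4 without replicate 1 or 2 at 0 mM or any 1 of the 20 mM libraries.

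Genes whose mRNAs carry the same kind of start were mostly lower at 40 mM. Of 79 cytosolic ribosomal protein genes 54 fell and 0 rose at 40 against 0 mM, with a median log2 fold change of −0.23. Without replicate 3 at 40 mM 55 fell and the median was −0.17. Limma called 43 lower on log2(FPKM + 1) and 30 on log2(TPM + 1). RPLP0 (−0.51 ± 0.05), RPL19 (−0.32 ± 0.03) and RPL14 (−0.37 ± 0.04) had the smallest p (edgeR adjusted p = 5.1e-06, 1.9e-05 and 2.1e-05). At 20 against 0 mM 7 fell and 0 rose, with a median of −0.04. Between 1 and 4 fell there when any 1 of the 6 libraries compared was left out, and 16 fell without replicate 3 at 40 mM.

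Of 17 other translation factors and related genes with TOP starts, 9 fell and 3 rose at 40 against 0 mM with a median of −0.12, led by NPM1, nucleophosmin (−0.72 ± 0.03, edgeR adjusted p = 4.3e-08), HNRNPA1 (−0.65 ± 0.03) and EIF3A (−0.31 ± 0.03). The lower dose gave 4 that rose and 2 that fell against 0 mM. Between 40 and 20 mM 42 ribosomal protein genes and 11 of these 17 fell and none rose. The ribosomal protein median there was −0.19, and −0.13 without replicate 3 at 40 mM. By limma 18 and 9 fell on log2(FPKM + 1) and 10 and 6 on log2(TPM + 1). By edgeR 21 and 20 ribosomal protein genes fell without replicate 2 or replicate 3 at 20 mM. Among 14 regulators of TOP mRNAs and mTORC1, 7 fell and 4 rose at 40 against 0 mM (by limma, 6 fell on log2(FPKM + 1) and 2 on log2(TPM + 1)). EIF4EBP2 and EIF4EBP1, which both hold back cap-dependent translation, went opposite ways (−0.59 ± 0.05 and 0.47 ± 0.08, edgeR adjusted p = 6.3e-06 and 0.00055).

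Factors of nonsense-mediated decay were called in shares near those of all genes. Of 23, 7 rose and 8 fell at 40 against 0 mM with a median of 0.05, where 28.8% of all genes tested were called higher and 27.4% lower, and 4 rose and 7 fell without replicate 2 at 0 mM. CASC3, a protein of the exon junction complex, rose (0.47 ± 0.04), while SMG9, which works with the kinase SMG1, and RBM8A, another protein of that complex, fell (−0.43 ± 0.04 and −0.35 ± 0.03, edgeR adjusted p = 1.1e-05 for both). At 20 against 0 mM 3 rose and 3 fell, and 4 rose and 5 fell without replicate 1 or replicate 3 at 40 mM.

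Coding mRNAs that are named as targets of the same decay were mostly higher. Of 13, 9 rose and 1 fell at 40 against 0 mM with a median of 0.49, and 7 rose and 2 fell at 20 against 0 mM with a median of 0.48. SLC7A11, the cystine carrier of system xc-, was at 1.01 ± 0.05 at 40 mM, and UPP1 and GADD45A at 1.16 ± 0.08 and 0.84 ± 0.06 (edgeR adjusted p = 1.1e-07, 9.8e-07 and 1.1e-06). ATF4 was at 0.59 ± 0.04 at 20 mM (edgeR adjusted p = 6.3e-06). Several genes of this list are also known targets of the transcription factor ATF4, and the part of decay and of transcription in their levels cannot be told apart from these data. At 20 against 0 mM 1 gene of the list fell, in place of 2, when any 1 of the 6 libraries compared other than replicate 3 at 0 mM was left out, and also without replicate 1 at 40 mM.

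**Figure D4:**
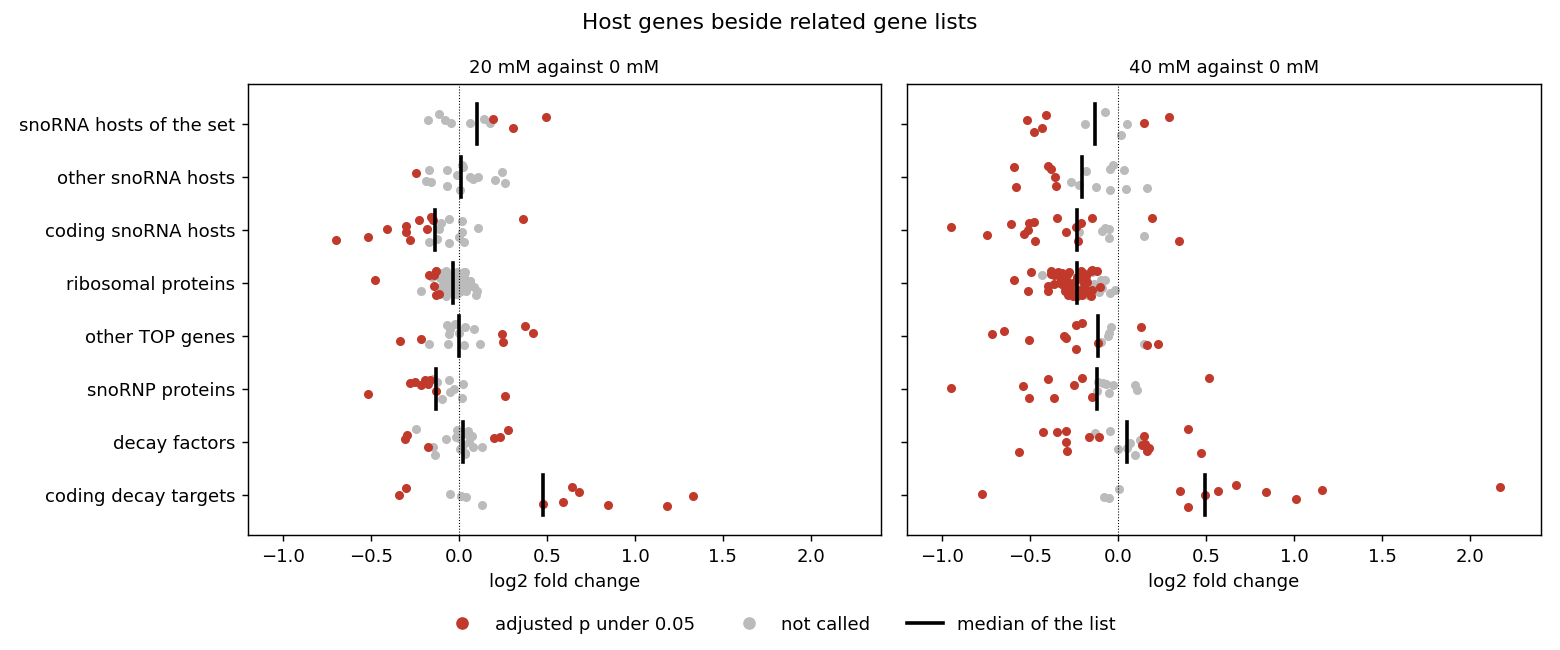
Log2 fold change (horizontal axes) of every tested gene of 8 lists (vertical axis), at 20 against 0 mM on the left and 40 against 0 mM on the right. Each point is a gene, red where edgeR's adjusted p was under 0.05, and the black bar is the list's median. The medians of the 10 host genes are 0.10 and −0.13, those of the ribosomal proteins −0.04 and −0.23, and those of the coding decay targets 0.48 and 0.49.

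Genes outside the group whose pattern over the 9 libraries was among the most like the mean of the 10 standardised host profiles were EEF1A1, translation elongation factor 1A (Pearson r = 0.972), AKR1C2, an aldo-keto reductase (0.966), WDR11 (0.956), IQCB1 (0.949) and SSBP1, which binds single-stranded mitochondrial DNA (0.948). These correlations are descriptions over 9 libraries of 1 cell line, and the genes share each library's depth. The host genes' own correlations with that mean, to which each contributes, ran from 0.547 for ZFAS1 and 0.552 for GAS5 to 0.950 for SNHG6.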

How the data were processed

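RNA of 9 libraries of A375 cells was captured with oligo(dT) and made into strand-specific libraries, per the labels' protocols. The table the authors deposited holds estimated counts and FPKM for every gene and library, per the file headers. The submitters' processing notes name StringTie 2.1.6. For the aligner, the genome build and the strand of counting, the sources used here give nothing. The counts behave as estimates rounded up, since 337 genes stand at 1 in all 9 libraries, 253 of them at a mean FPKM under 0.01. They were used as whole numbers. Of the gene IDs, 35955 occur in GENCODE 29 and 21571 have the same position there, and positions of table rows are printed as the table gives them.

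Genes averaging 1 FPKM or more over all libraries, 12394 in number, were tested (98.74% of counts), and all 10 host genes passed this filter. The fit was edgeR 4.0.16 (R 4.3.3) glmQLFit and glmQLFTest with TMM scaling over all 9 libraries, 1 factor of 3 doses and no block. A gene was called, and is said to have risen or fallen, at a Benjamini-Hochberg adjusted p under 0.05 over all genes tested. The SE is the log2 fold change over the square root of F. At these depths the spread between libraries, not counting error, limits the precision of the host genes. DESeq2 1.42.0 and limma 3.58.1 gave alternatives. The scripts were tested on simulated data.

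All 10 host genes are named. From each related list up to 3 genes with the smallest p are named, and the 6 genes of most like pattern, of which 1 is not reported here. The host genes and all lists were chosen with earlier results of these data known. The hosted RNAs were tested although counts alone had been foreseen for them.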

Additional observations from a re-analysis of the deposited data

How the results depend on the processing

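Each result was recomputed under 18 alternatives. Of 537 values for single host genes, 507 kept their direction and their side of the threshold, 14 lost the call and 13 gained one. The other 3, none of them called, changed sign, each with 1 library left out. Over the fits that leave out 1 library, SNHG1 at 20 against 0 mM ran from −0.12 to 0.0037 (above 0 without 20 mM replicate 1), SNHG6 there from −0.0034 to 0.11 (below 0 without 20 mM replicate 3) and SNHG16 at 40 against 0 mM from −0.012 to 0.053 (below 0 without 40 mM replicate 1). At 20 against 0 mM 3 host genes were called under every alternative but 1, and leaving out 1 library gave 3 to 4. At 40 against 0 mM the count stayed between 5 and 6. Without the filter ZFAS1 missed the threshold, and with a filter of 5 FPKM SNHG8 was not tested. Between 40 and 20 mM 8 were called by DESeq2 and 2 by limma on log2(FPKM + 1), log2(FPKM + 0.1) or log2(TPM + 1), and leaving out 1 library gave 2 to 7. The cause was not tested.

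The correlations of deviations between same-numbered libraries ran from −0.10 to 0.19, although 6 of 9 libraries correlated best with their own number. Whether replicate numbers pair the libraries is therefore not settled. With the replicate block 3, 6 and 6 host genes were called at 20 against 0, 40 against 0 and 40 against 20 mM. SNHG5 and SNHG8 were added in the last comparison (−0.34 and −0.46, edgeR adjusted p = 0.040 and 0.037).

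With 3 libraries a dose, small changes such as that of EPB41L4A-AS1 can be missed. By limma the median of all genes at 40 against 0 mM was 0.03 on log2(FPKM + 1) and 0.05 on log2(TPM + 1), against 0.00 by edgeR.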
